A study of Drosophila melanogaster with 3 samples.

Results

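Biological replicate 2 of a salr ChIP-seq experiment in Drosophila melanogaster prepupae listed many strong peaks that the authors' final peak set does not hold. The peaks described here were chosen by their measured values. The strongest peaks of that library by deposited signal were taken, as many as the irreproducible discovery rate (IDR) list holds, and those were kept whose summit lay more than 100 bp from every IDR summit. This left 1297 member peaks, 33.8% of the strong peaks. The other 2542 strong peaks of library 2 (66.2%) had an IDR summit within 100 bp and served for comparison as the peaks inside the IDR list. The same rule gave 776 peaks in library 1 and 788 in library 3.

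Spalt-related (salr) encodes a zinc finger transcription factor of the spalt family, whose fly members act in wing, eye, muscle and trachea development and whose mammalian relative SALL4 is known to bind A/T-rich DNA. In ChIP-seq, protein and DNA are crosslinked, the chromatin is sheared, fragments held by an antibody are sequenced, and places where fragments pile up are called as peaks with a summit. IDR analysis compares the order of peak strengths between replicates and is meant to keep the peaks whose ranks are reproducible. Here the IDR peaks were, without exception, the strongest of the list made from the pooled alignments. A member was therefore a place with a lower rank in that pooled list, or with no pooled summit within 100 bp. Absence from the IDR list does not by itself show that a peak was weak or missing in the other libraries.

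All material came from the strain salr-GFP, which stably expresses salr with a GFP tag at its C terminus. Whole prepupae of 24 hours, males and females pooled, made up each of 3 biological replicates, and chromatin was sonicated to a range of 200 to 800 bp. The labels name neither the promoter that drives the fusion nor whether it adds a copy of salr, and whole animals mix all tissues. The free text of every library calls it an input control, whereas its assay title and antibody field describe immunoprecipitation; the libraries were grouped by assay title, and the separate control was not analysed here. Library 2 had a larger share of its strong peaks outside the IDR list (33.8%) than library 1 (20.2%) or library 3 (20.5%), a difference that was not tested. Every member comes from library 2, so no result on the members can be had without it. The files hold no read counts, so depth is unknown.

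Sequences around a few summits show the base composition on which the results below turn. Each runs from 50 bp before the deposited summit to 50 bp after it, from the Release 6 genome (dm6 coordinates), plus strand, 5′ to 3′. The first 6 are the strongest members over 500 bp from any IDR summit, and the next 4 are members from the gene lists described further on. They lie at chrX:15788395-15788495 (Rhp, a rhophilin gene), chr3L:16128662-16128762 (between Pgm1, phosphoglucomutase, and SsRbeta, a signal sequence receptor subunit), chrX:8421329-8421429 (Trf2, a TBP-related factor), chr2L:12529698-12529798 (an intron of bun, a TSC-22 family gene), chr2L:14568858-14568958 (intergenic, nearest CG3473), chr3R:12717087-12717187 (an intron of Men, malic enzyme), chrX:7307695-7307795 (brk, a repressor of Dpp targets), chr3L:17576825-17576925 (Eip74EF, an ecdysone-induced Ets factor), chr3R:16830105-16830205 (the Hox gene abd-A) and chr3R:24057383-24057483 (between Hsp68 and SMC1, a cohesin subunit). Capitals mark stretches that match any of the 6 words whose frequency rose most at member summits (CACACA with its shift ACACAC, then CGCACA with its shift GCACAC, and GAGAGC with AGAGAG, on both strands, overlaps allowed).
Rhp: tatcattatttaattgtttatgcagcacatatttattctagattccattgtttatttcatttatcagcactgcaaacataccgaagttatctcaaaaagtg
Pgm1 and SsRbeta: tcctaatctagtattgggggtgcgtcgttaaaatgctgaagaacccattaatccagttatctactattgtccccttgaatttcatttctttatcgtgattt
Trf2: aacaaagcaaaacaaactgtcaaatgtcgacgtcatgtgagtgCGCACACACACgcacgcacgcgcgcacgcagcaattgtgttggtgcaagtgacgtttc
bun: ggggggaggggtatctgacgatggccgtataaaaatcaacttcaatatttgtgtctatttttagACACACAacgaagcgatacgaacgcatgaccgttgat
CG3473: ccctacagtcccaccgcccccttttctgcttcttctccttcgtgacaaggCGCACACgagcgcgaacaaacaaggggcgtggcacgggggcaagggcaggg
Men: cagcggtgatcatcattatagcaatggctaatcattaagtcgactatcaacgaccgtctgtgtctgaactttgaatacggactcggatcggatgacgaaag
brk: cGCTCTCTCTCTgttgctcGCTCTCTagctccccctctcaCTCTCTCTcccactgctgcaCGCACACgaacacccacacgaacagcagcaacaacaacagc
Eip74EF: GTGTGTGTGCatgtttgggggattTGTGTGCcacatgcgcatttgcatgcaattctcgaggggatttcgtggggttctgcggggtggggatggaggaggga
abd-A: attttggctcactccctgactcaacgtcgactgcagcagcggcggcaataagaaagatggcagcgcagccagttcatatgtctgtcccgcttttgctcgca
Hsp68 and SMC1: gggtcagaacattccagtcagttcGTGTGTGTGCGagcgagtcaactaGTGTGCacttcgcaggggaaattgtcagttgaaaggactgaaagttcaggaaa

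For contrast, these are the 2 strongest peaks of library 2 inside the IDR list, at chr3L:19590564-19590664 (CG14100) and chrX:2703827-2703927 (between Ugalt, which encodes a transporter of UDP-galactose, and eIF2Bbeta, for a subunit of a translation initiation factor). Here capitals mark the 6 words that fell most at member summits (AAAATT with AAAAAT, then AAATTA with TAAAAA, then ATTTAA with TTAAAA, on both strands, overlaps allowed). These falling words were left in lower case in the member windows above. There they cover 14 bases at bun, 6 at Rhp and 6 at Pgm1, and 0 in the other member windows. The rising words cover 0 bases in both windows below.
CG14100: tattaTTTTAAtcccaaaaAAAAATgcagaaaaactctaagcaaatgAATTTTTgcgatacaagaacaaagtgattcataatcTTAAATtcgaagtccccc
Ugalt and eIF2Bbeta: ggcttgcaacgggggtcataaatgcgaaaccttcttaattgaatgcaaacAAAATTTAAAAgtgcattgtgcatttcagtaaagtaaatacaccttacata
GC content was 58.4% in the brk window and 51.5% in the Trf2 window, against 28.7% at CG14100 and 34.7% at Ugalt. Members were not uniform, since the Rhp window had 27.7% and holds none of the 6 rising words, as do the windows of Pgm1, Men and abd-A.

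The values that chose the members are a description and carry no test. Member signal in library 2 ran from 39.3 to 173 with a median of 46.2, on the authors' scale, which is not stated. Divided by the median of the library's 30000 listed peaks (18.1), this is a relative signal of 2.17 to 9.58, median 2.55. The peaks inside the IDR list had a median signal of 68.4 and a highest of 772. The members thus filled the lower ranks of the strong peaks. No member (0) was among the 100 strongest, 5 were among the 500 strongest and 32 among the 1000 strongest. Members made up 1.04% of ranks 1 to 480, 28.8% of ranks 1441 to 1920 and 68.5% from rank 3361 to the last of the strong peaks. At the limit, the last members were at Glut4EF, hbt and CG9175 and the first peaks past it at CG16989, lncRNA:CR45632 and CG5888, all with a relative signal of 2.17. At the distance limit, the nearest members lay 1 bp past it, at CG9663, MFS10 and ND-MWFE, and the nearest non-members, at TppII, plum and Hr4, lay 99 to 100 bp from an IDR summit.

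Most members were separate places and not shifted summits of IDR peaks. The distance to the nearest IDR summit had a median of 3600 bp and reached 970876 bp, at a promoter peak of ci, the Hedgehog pathway transcription factor, on chromosome 4. Of the 1297 members, 1108 (85.4%) lay over 500 bp away and 390 (30.1%) over 10000 bp. The other 189 lay within 500 bp, 106 of them within 200 bp, and 141 members had an interval that overlapped an IDR interval.

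Members near an IDR summit were common among the strongest. The strongest member, on 3L from 7719180 to 7719368 between Mcad, an acyl-CoA dehydrogenase gene, and Ank2, an ankyrin gene, had rank 211 and a relative signal of 9.58 in library 2, and lay 105 bp from an IDR summit. Neither library 1, with its nearest summit 122 bp away, nor library 3, at 109 bp, listed it within 100 bp. The second, in an intron of Mnt, a bHLH gene of the Max network (X, 3677684 to 3677773), had rank 297 and a relative signal of 8.27 and lay 443 bp from an IDR summit. Of the 12 strongest, 6 stayed members when the distance was set to 200 bp and 4 when it was set to 500 bp. These 4 were Rhp, Pgm1 with SsRbeta, Trf2 and bun.

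The isolated strong members differed in how the other libraries listed them. The Rhp peak (FBgn0026374; X, 15788375 to 15788527; summit 452 bp upstream of the TSS) had a relative signal of 6.72 in library 2, 3.69 in library 1 and 1.11 in library 3. The Pgm1 peak (FBgn0003076; 3L, 16128544 to 16128879; 181 bp upstream) had 6.25 in library 2 and 7.01 in library 1, with no summit of library 3 within 451 bp. Both were thus strong in library 1, yet the pooled list, made from the alignments of all 3 libraries, had no summit within 18742 bp of either. The Trf2 peak (FBgn0261793; X, 8421211 to 8421546; 14 bp downstream of the TSS) had 5.41 in library 2 and was listed nowhere else. The bun peak (FBgn0259176; 2L, 12529580 to 12529915; intron) had 5.27 in library 2 and a rank of 6030 in the pooled list, but was listed in neither other library.

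Libraries 1 and 3 listed many of the members, at much lower rank. Absence from the IDR list, by which the members were chosen, is not independent of how the other libraries rank a place, so the following shares are a description. Within 100 bp, library 1 listed 640 of 1297 members (49.3%, 95% Wilson interval 46.6% to 52.1%), and library 3 listed 394 (30.4%, 27.9% to 32.9%). These shares depend on the distance allowed. They were 32.1% in library 1 and 20.9% in library 3 within 50 bp, and 86.2% in library 1 and 67.8% in library 3 within 500 bp, and all shares below use 100 bp unless another distance is named. For the peaks inside the IDR list the shares were 94.9% in library 1 and 90.9% in library 3. For the weakest peaks of library 2, as many as the IDR list holds, they were 15.0% and 14.7%, so the members lay between strong IDR peaks and weak peaks. Wilson intervals cover counting error only, and neighbouring peaks are not independent.

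Where a member was listed, its rank was low. In library 1 the listed members had ranks of 378 at best, 7927.5 at the median and 29532 at worst, against a median of 1384 for the peaks inside the IDR list. In library 3 the best, median and worst ranks were 191, 9975.5 and 29863, against a median of 1397 for the peaks inside the list. The weakest peaks of library 2, where listed, had median ranks of 15467.5 in library 1 and 15275 in library 3. Counting to the length of the IDR list, 110 members were among the strongest peaks of library 1, 19 among those of library 3, and 3 among those of both. Of the 110, 34 came from the 189 members within 500 bp of an IDR summit, as did 9 of the 19. Members farther from an IDR summit had best ranks of 583 in library 1 and 1379 in library 3. Both libraries listed 246 members (19.0%), library 1 alone 394 (30.4%), library 3 alone 148 (11.4%), and neither 509 (39.2%). Of the peaks inside the IDR list, 36 (1.42%) were in neither.

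**Figure D1:**
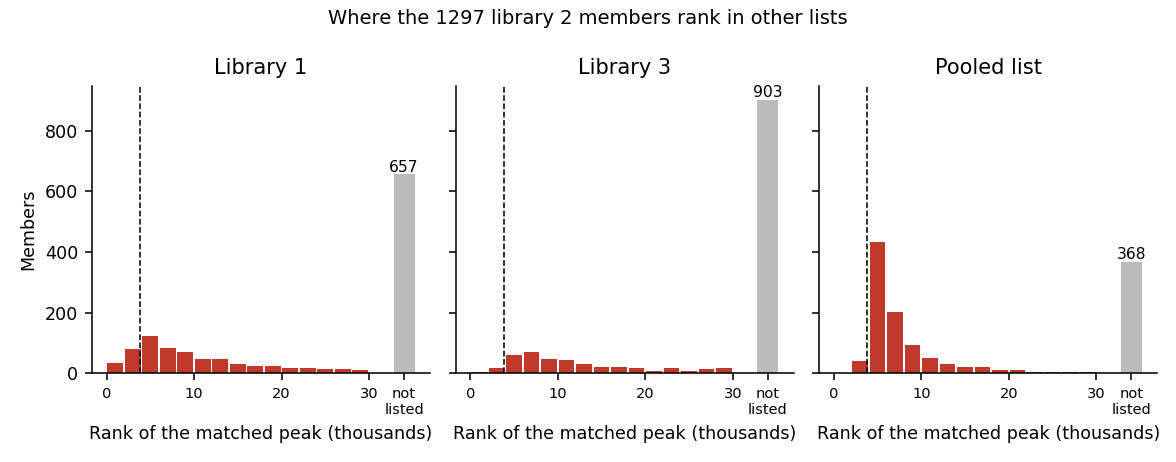
Histogram of the rank (bins of 2000 ranks) of the peak matched to each of the 1297 members within 100 bp in library 1, library 3 and the pooled list. Grey bars count members with no match (657, 903 and 368), and the dashed line marks the length of the IDR list, a rank that few listed members reach.

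The pooled list held 929 members (71.6%), at a median rank of 5943 and a best rank of 3843. The IDR peaks are the strongest of the pooled list without exception, so a better rank was closed to the members. The remaining 368 (28.4%) had no pooled summit within 100 bp, and 235 (18.1%) were in none of the other lists. With a wider search, 139 members (10.7%) still had no pooled summit within 500 bp, and 66 of these were listed in library 1 but 5 in library 3. Of the 110 members among the strongest of library 1, 70 had no pooled summit within 100 bp. The member with the best mean rank in libraries 1 and 3 was of this kind. It lay between mgr, a prefoldin subunit gene, and Irbp, the Ku70 gene (3R, 11409770 to 11410105), with relative signals of 2.63 in library 2, 3.77 in library 1 and 5.09 in library 3, while the nearest pooled summit was 12002 bp away. The sources used here do not say how the pooled list came to lack these places.

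The same shares were taken for the strong peaks of libraries 1 and 3 outside the IDR list. Library 2 listed 55.5% of the 776 from library 1, at a median rank of 7831, and library 3 listed 50%, at a median rank of 5482. Library 1 listed 63.3% of the 788 from library 3, at a median rank of 6290, and library 2 listed 43.0%, at 10067. Neither of the other libraries held 39.2% of the members, against 21.4% of the library 1 peaks and 21.8% of the library 3 peaks. With 1 library of each kind, these differences were not tested.

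The members were rich in G and C at their summits. Over the 50 bp on each side of a member summit, GC content averaged 47.5% ± 8.39 (SD over 1297 peaks), against 39.5% in windows centred 500 bp to either side, a difference of 8.04 points ± 11.9. With flanks at 1000 bp the difference was smaller, 5.68 points. The summit exceeded its flanks at 993 members (76.6%), and 542 (41.8%) had a GC content of at least 50%. The peaks inside the IDR list went the other way, with 37.3% ± 9.73 at the summit, 42.4% in the flanks and 12.5% of peaks at 50% or more. The strong peaks outside the IDR list were also A/T-rich in the other libraries, at 37.1% ± 9.65 in library 1 and 35.3% ± 8.71 in library 3. In level, the members resembled the weakest peaks of library 2, which had 46.7% ± 8.84 at the summit and 42.0% in the flanks. The sets of library 2 also differ in signal, with a median of 46.2 at members and 68.4 inside the IDR list. They were not matched for signal, here or below.

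**Figure D2:**
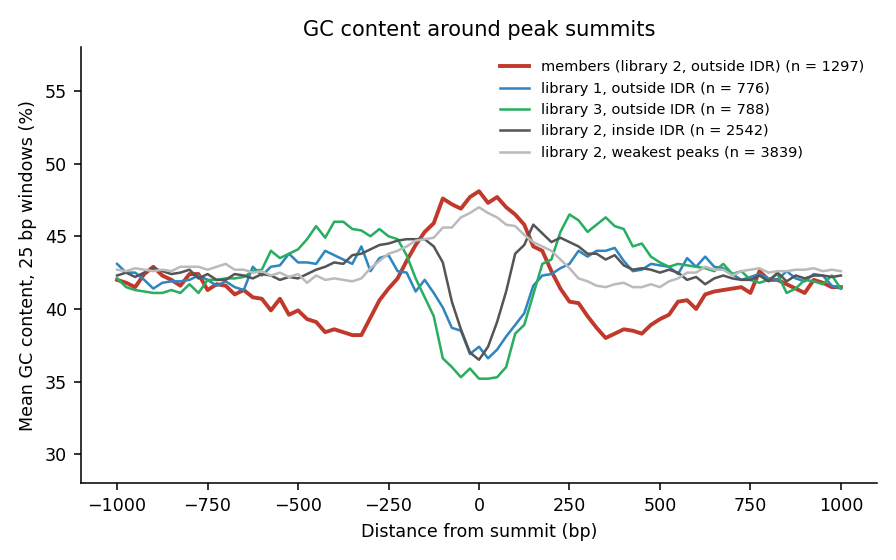
Mean GC content (%) in 25 bp windows by distance from the summit (bp) for members, the peaks outside the IDR list in libraries 1 and 3, and the library 2 peaks inside the list and weakest in signal. Members climb to 48.1% at the summit over flanks as low as 38.0%, the weakest peaks have a broad rise, and the other sets dip at the summit.

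Mean GC content was 47.6% in the 432 strongest members by signal and 47.7% in the 432 weakest. Members listed in both other libraries had 46.4%, those in library 1 alone 47.0%, those in library 3 alone 47.8% and those in neither 48.4%. By place it was 47.1% upstream of a TSS, 47.0% downstream, 47.4% in introns and 49.6% between genes, against 37.4%, 40.2%, 36.1% and 36.2% at the peaks inside the IDR list. Members within 500 bp of an IDR summit had 45.8%, and the rest 47.8%. Lower means were found in smaller groups. The 5 members at ranks 1 to 480 of library 2 had 42.2% and the 25 at ranks 481 to 960 had 45.1%, against 47.2% to 48.6% in the later bins of rank. The 110 members among the strongest peaks of library 1 had 41.9% ± 10.4, and the 139 without a pooled summit within 500 bp had 43.6% ± 9.84. The soft-masked share of bases was 17.2% at member summits and 20.1% at the peaks inside the list. In 1 member over 50% of the 36-base words of its window occurred elsewhere in the genome.

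Turned round, the share of library 2's strong peaks that fell outside the IDR list climbed with GC content. It was 5.79% of 708 peaks below 30% GC, 16.5% of 1191 from 30% to 40%, 47.9% of 1079 from 40% to 50%, 63.3% of 752 from 50% to 60%, and 60.6% of 109 above. In library 1 the share ran from 16.7% to 29.5% over the same bins, and in library 3 from 11.5% to 23.1% without a steady order. Library 2 also had more GC-rich peaks among its strongest to begin with, 861 at 50% or more, against 309 in library 1 and 241 in library 3. The bins were not matched for signal.

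**Figure D3:**
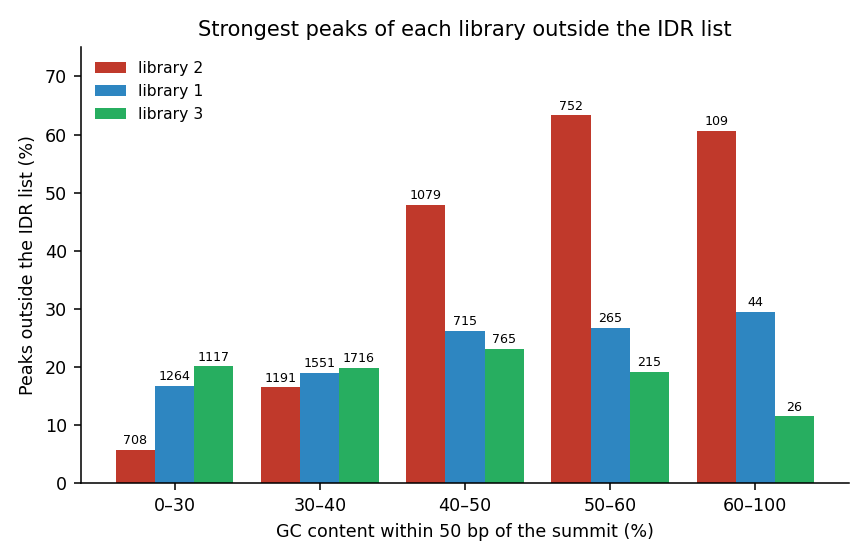
Share (%) of the strongest peaks of each library, as many as the IDR list holds, that lay outside the IDR list, by GC content within 50 bp of the summit (%), with the number of peaks in the bin above each bar. Library 2 climbs to over 60% in the GC-rich bins, and libraries 1 and 3 stay below 30%.

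Over the 3 libraries, the GC difference between peaks outside and inside the IDR list was not uniform. It was 10.2 points in library 2 (47.5% outside, 37.3% inside), 2.26 in library 1 (37.1% and 34.9%) and -0.0999 in library 3 (35.3% and 35.4%). The mean was 4.13 ± 5.42 points (SD, n = 3), and an exact two-sided sign-flip permutation test gave p = 0.5, where 0.25 is the smallest p that 3 libraries allow. Whether library 2 differs from the others could not be tested with 1 library against 2.

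Short words gave the composition in more detail. Every word of 6 bases, a word and its reverse complement counted as the same, was compared between the summit window and 1 flank window of the same peak by a two-sided exact binomial test with Benjamini-Hochberg adjustment (adjusted p under 0.05). At member summits 243 words were more frequent (11.7% of those tested) and 252 less frequent (12.1%). Of the words that rose, 186 had at least 4 G or C bases and none (0) was made of A and T alone. All 36 words of A and T alone were among those that fell. Peaks count as independent in this test, although neighbours are not. Each set comes from a single library, so the p-values measure spread over its peaks and not between libraries. The words also overlap each other, so the counts are not of separate motifs.

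CA repeats led the words that rose. CACACA occurred at 20% of 1297 member summits and 9.33% of their flanks (adjusted exact p = 1.1e-12), and the related words ACACAC (17.0% and 7.56%), CGCACA (12.7% and 5.17%) and GCACAC (14.5% and 7.4%) followed. At the peaks inside the IDR list CACACA was less frequent at the summit, 8.93% against 11.2% (adjusted exact p = 0.028). At the weakest peaks it was higher too, 13.5% against 8.05% (adjusted exact p = 3.3e-12). Outside the list in library 1 it was not called, at 10.1% and 10.6% (adjusted exact p = 0.98). Outside the list in library 3 it was lower at the summit, at 6.85% and 13.6% (adjusted exact p = 0.00028). The Trf2, bun, Eip74EF and Hsp68 windows printed above carry such runs.

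GA-type words also rose. GAGAGC stood at 10.9% of member summits and 4.16% of flanks (adjusted exact p = 3.6e-09), and AGAGAG at 11.3% and 4.63% (9.3e-09). The brk window is an example, with several CT runs, which are GA runs on the other strand. GAGAGC was not called at the peaks inside the IDR list (5.35% and 5.19%, adjusted exact p = 0.93), at the weakest peaks (4.09% and 3.59%, 0.50), or outside the list in library 1 (4.12% and 4.38%, 1.0) and library 3 (3.05% and 5.71%, 0.068). GAGAGA, the repeat read by the GAGA factor Trl, was at 8.64% of member summits and 5.09% of flanks (adjusted exact p = 0.0041), and was higher also inside the IDR list, at 6.81% and 4.92% (0.021), but was not called at the weakest peaks, at 4.12% and 3.67% (0.55). AGAGAG was called at the weakest peaks, at 4.77% and 3.57% (adjusted exact p = 0.045), and not inside the list, at 7.32% and 5.82% (0.091). The differences between these sets were not tested.

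The words that fell were A/T-rich. AAAATT occurred at 6.78% of member summits and 18.9% of flanks (adjusted exact p = 6.6e-17), and ATTTAA at 7.25% and 17.9% (2.6e-13). Inside the IDR list both were higher at the summit, AAAATT at 19.3% and 16.1% (0.015) and ATTTAA at 21.4% and 15.3% (3.5e-06). AATATT, which resembles the A/T-rich words that spalt zinc fingers are known to bind, was at 5.78% of member summits and 10.3% of flanks (adjusted exact p = 0.00035), against 13.5% and 8.93% inside the IDR list (1.2e-05). AATATT is among the 36 words of A and T alone, all of which fell at members, while 34 rose inside the list. Its fall was not tested apart from theirs. The TATA box core TATAAA was at 5.86% and 14.8% (1.4e-11), against 16.4% and 10.8% inside the list (1.3e-06). Words of other promoter and enhancer factors were not called at members, among them CAGCTG, an E-box, at 4.86% and 4.39% (adjusted exact p = 0.80), CAGGTA of the Zelda type at 2.7% and 2.31% (0.79) and AGGTCA, the nuclear receptor half-site, at 2.16% and 2.24% (1.0).

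The same words were called in opposite directions at the members and inside the IDR list. There, 283 words were higher (13.6%) and 388 lower (18.7%) at the summit. Of the 252 words that fell at members, 144 (57.1%) rose inside the list, where they make up 50.9% of the rises, and of the 243 that rose, 85 (35.0%) fell inside the list, 21.9% of the falls there. In the same direction were 5 rises (AAACAG with CTGTGC, and ACAGAG with its shift CAGAGA, besides GAGAGA) and 2 falls (CCAAAA and GAGATC). At the weakest peaks 213 words were higher (10.2%) and 212 lower (10.2%), and no word (0) was called against its direction at members. The shared rises were 89 (36.6% of those at members, 41.8% of those at weak peaks) and the shared falls 153 (60.7% and 72.2%). Outside the IDR list, library 1 had 44 words higher (2.12%) and 53 lower (2.55%), and library 3 had 172 higher (8.27%) and 174 lower (8.37%). Words with at least 4 G or C bases made up none (0) of the rises in either.

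**Figure D4:**
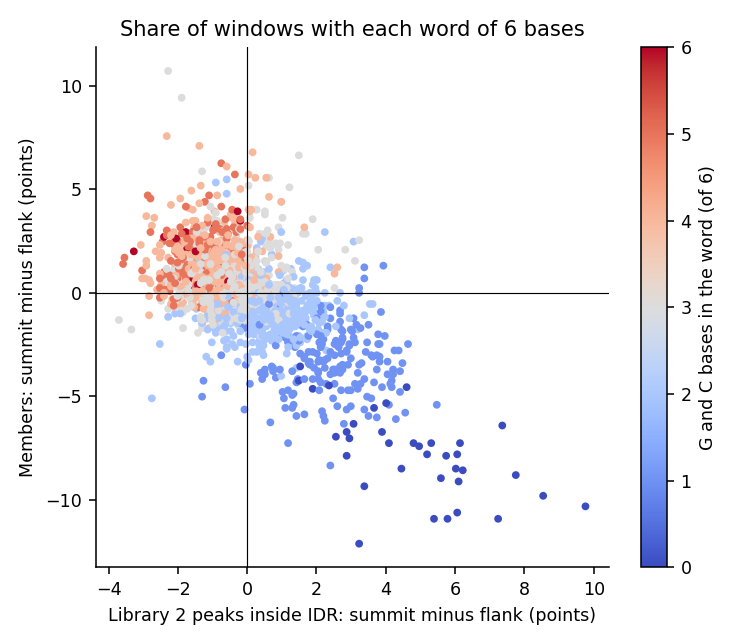
Each dot is a word of 6 bases, placed by the difference between summit and flank in the share of windows that hold it (percentage points), at members on the vertical axis and at the peaks inside the IDR list on the horizontal axis, coloured by its number of G and C bases. A/T words lie at the lower right, down to -12.1 points at members, and G/C-rich words at the upper left.

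In genomic class the members resembled the strong IDR peaks and not the weak ones. A promoter summit, within 1000 bp of a TSS, was present for 649 of 1297 members (50%, Wilson interval 47.3% to 52.8%), 50.6% of the peaks inside the IDR list and 29.7% of the weakest peaks. Introns held 430 members (33.2%), against 35.3% inside the list and 38.9% of the weakest. Intergenic sequence held 189 (14.6%), against 12.6% inside the list and 19.7% of the weakest. Coding exons held 7 members (0.54%, Wilson interval 0.262% to 1.11%), against 0.157% inside the list and 8.44% of the weakest. The 3 prime UTRs held 13 members (1.0%), against 0.472% and 2.06%.

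The promoter share differed among libraries in both directions. Outside minus inside the IDR list it was -0.591 points in library 2, 8.76 in library 1 (60.1% and 51.3%) and -8.08 in library 3 (39.1% and 47.2%). The mean was 0.0308 ± 8.44 points (SD, n = 3; exact sign-flip permutation p = 1.0), and it turned to -4.33 without library 1. The share of members in promoters was 29% with a TSS distance of 200 bp and 61.4% with 2000 bp.

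At promoters, member summits sat on both sides of the start site. Of the 649, 320 (49.3%, Wilson interval 45.5% to 53.1%) were upstream of the nearest TSS, against 866 of 1287 inside the IDR list (67.3%, 64.7% to 69.8%) and 42.8% at the weakest peaks. The median summit lay 6 bp downstream at members and 94 bp upstream inside the list. The first 200 bp downstream held 178 (27.4%, 24.1% to 31.0%), against 13.1% inside the list (11.3% to 15.0%). Outside the list in libraries 1 and 3, 73.6% and 72.4% were upstream. Start sites on both strands within 1000 bp, where a side is ambiguous, occurred at 172 of the 649. Among the members listed in both other libraries 64 of 106 promoter summits (60.4%, 50.9% to 69.2%) were upstream, and among those in neither 118 of 246 (48.0%, 41.8% to 54.2%).

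**Figure D5:**
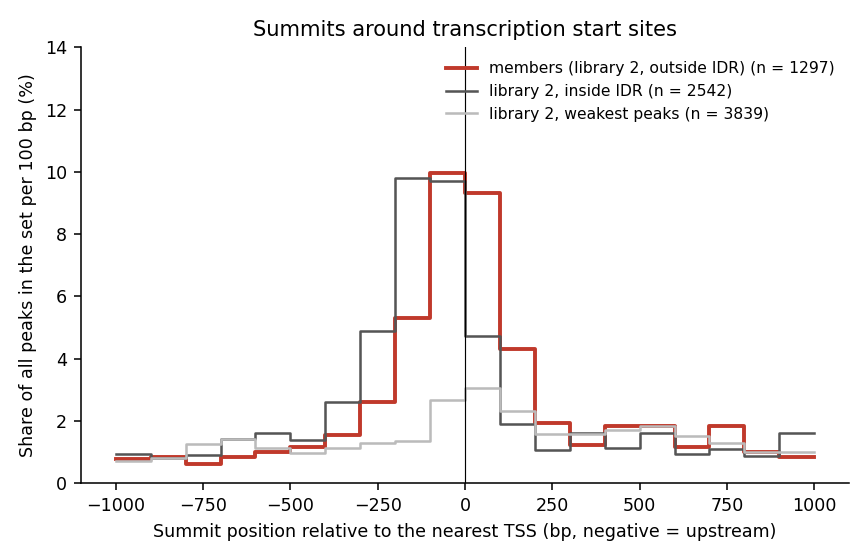
Share (%) of all peaks in each set whose summit falls in each 100 bp bin around the nearest TSS (bp, negative is upstream). Members reach 9.95% in the bin before the start and 9.33% in the bin after it, the peaks inside the IDR list 9.72% and 4.72%, and the weakest peaks of library 2 stay near 3%.

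By chromosome, X held fewer of the members. It had 143 (11.0%, Wilson interval 9.43% to 12.8%), against 475 inside the IDR list (18.7%, 17.2% to 20.2%) and 13.5% of the weakest peaks. The share on X outside the list was 12.5% in library 1 and 24.0% in library 3. Arms 3L and 3R held 25.8% and 25.9% of members, against 22.1% each inside the list, and 2L and 2R held 17.6% and 18.9%, against 18.5% each. The small chromosome 4 had 10 members (0.771%) and 1 peak inside the list. Library 1 had 14 peaks there outside the list, and library 3 had 0 of 788.

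The members marked 841 of 18164 genes (4.63%) with a summit within 1000 bp of a TSS, and the peaks inside the IDR list marked 1690 (9.3%). Of the 841, 305 (36.3%) also had an IDR summit in that distance. The same share over all genes is not given here, so 36.3% cannot be read as high or low. By type, 683 of 13945 protein-coding genes (4.9%), 140 of 3261 ncRNA genes (4.29%) and 5 of 290 tRNA genes (1.72%) had a member. The counts for gene lists below are to be read against 4.63%, and several lists are too short for the share to say much.

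Ecdysone drives metamorphosis in prepupae through a nuclear receptor and a cascade of early transcription factors, and 6 of 25 genes of the ecdysone response list (24.0%) had a member, as many as had a peak inside the IDR list. They were Eip74EF, Sox14, EcR (the receptor itself), Eip93F, Eip75B and ftz-f1. At Eip74EF (FBgn0000567; 3L, 17576707 to 17577042; 249 bp upstream) the relative signal was 4.2 in library 2, and no other list had a summit within 100 bp, the nearest IDR summit being 236 bp away. At EcR (2R, 6131795 to 6132130; 41 bp upstream) it was 2.63 in library 2 and 1.12 in library 1, and library 3 did not list it.

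Of 15 Polycomb group genes 5 had a member (33.3%), the same number as inside the IDR list. These were ph-d, ph-p and Psc, which encode subunits of Polycomb repressive complex 1, E(z), the H3K27 methyltransferase, and jing, a zinc finger gene. Relative signal in library 2 was 4.13 at ph-d, 3.99 at E(z) and 3.8 at ph-p, and library 3 alone of the other libraries listed any of them, ph-p at 1.34. All 3 lay close to IDR summits, at 224, 135 and 168 bp. The E(z) summit was A/T-rich, with 20.8% GC.

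Of 25 genes of the Dpp pathway and wing patterning, where spalt genes work as Dpp targets, 4 (16.0%) had a member. These were brk, ci, ptc (the Hedgehog receptor) and ara (an Iroquois gene). The brk peak (FBgn0024250; X, 7307577 to 7307912; 194 bp upstream) had a relative signal of 3.68 in library 2 with no match in libraries 1 and 3, and the ci peak had 3.24 in library 2 and 2.02 in library 1. The single Hox gene of 8 was abd-A (FBgn0000014; 3R, 16829987 to 16830322), with 2.48 in library 2 and 1.23 in library 1, and no Hox gene (0) had a peak inside the IDR list. Of 17 Notch genes, 2 had a member, numb and mam. The spalt genes salr and salm had 0 members, and both have a peak inside the list.

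Of 86 cytoplasmic ribosomal protein genes 6 (6.98%) had a member, against 52 (60.5%) with a peak inside the IDR list. Of all genes, 4.63% had a member and 9.3% a peak inside the list. RpL9 (2L, 11003945 to 11004280) had relative signals of 3.42 in library 2 and 4.09 in library 1, with no pooled summit within 17637 bp. RpS29 had 2.78 in library 2 and 4.35 in library 1, but its library 1 summit lay 98 bp away, near the matching limit. The RpS29 member was also only 106 bp from an IDR summit, against 36254 bp for RpL9. Mitochondrial ribosomal protein genes had 2 of 73. Abundant housekeeping genes had 7 of 30 (23.3%), among them Ald1 (aldolase), Pgk and Pgi of glycolysis and the elongation factor genes eEF1alpha1 and eEF1alpha2. At Ald1 (3R, 26258957 to 26259292) the relative signal was 2.91 in library 2, with no match in libraries 1 and 3.

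Of 14 heat shock genes 3 (21.4%) had a member. Hsp67Bc and Hsp22 shared 1 peak, and the Hsp68 peak (FBgn0001230; 3R, 24057265 to 24057600; upstream of the TSS) had a relative signal of 2.56 in library 2, with the nearest summit of library 1 at 6047 bp and of library 3 at 16022 bp. Transfer RNA genes had 5 of 295 from 2 peaks, small nuclear and nucleolar RNA genes 9 of 289 from 6 peaks, and microRNA genes 8 of 260 from 6 peaks, including mir-279 and the bantam locus mir-ban. Cuticle protein genes had 0 of 125, sarcomere genes 0 of 26 and neuronal recognition immunoglobulin genes 1 of 54 (DIP-eta). Replication histone genes had 0 of 111, and no peak (0) inside the IDR list either.

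Members also occurred in runs. The densest windows of 20000 bp held 8 members each. In the first, on 3L between summits 10724812 and 10743049, no gene lay inside, and the nearest TSSs, of CG43245 and NijA, were 27935 to 37119 bp away. The 8 members there averaged 50.1% GC, 4 were in neither other library, and 3 IDR summits lay between them. In the second, on 3R from 16234581 to 16253121, the members lay at and in tara, a trithorax group gene, with 52.0% GC, 4 in neither other library and 4 IDR summits. Another run of 7 lay on 3L from 16172506 to 16191084, around lncRNA:CR45755 and lncRNA:CR45754.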

How the data were processed

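The authors deposited peak lists on dm6 in narrowPeak layout, per the deposited notes: 1 list per library of salr-GFP prepupae, 1 from pooled alignments (30000 peaks each) and 1 IDR list of 3839, all made with 1 shared control. An aligner was not given in the sources used here, nor was a peak caller. Each deposited signal is the caller's enrichment per peak on an unstated scale, and was used to rank peaks and, divided by a library's median, as relative signal. The deposited −log10 q-value was not used. Positions were written 1-based. Summits within 100 bp were matched. No count of reads was given, so precision from depth cannot be stated.

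Genes and 23584 TSSs came from Ensembl BDGP6.54 release 115 without transposable elements, and sequence from Release 6, in which every peak fits. Summits within 1000 bp of a TSS were called promoter, the rest by the first match among UTR at the 5 prime end, coding exon, UTR at the 3 prime end, other exons, introns and intergenic sequence. Words were tested within 50 bp of the summit against 1 window whose centre was 500 bp off, the side drawn with a fixed seed, over 2080 words. Before that, the test was run on simulated independent peaks whose summit and flank windows had the same base composition. That run did not cover a difference in GC content between the windows, or peaks that depend on each other. The samples form a single group of 3 libraries. Members, 17 gene lists and 16 fixed words were chosen with earlier results of these data known. Named are the 12 strongest members, the 6 strongest in neither other library, the 4 with the best mean rank in libraries 1 and 3, 3 peaks on each side of both limits, up to 3 members for each list, the 3 densest windows, and the 6 words that rose and the 6 that fell most. Further names from the lists were chosen after their values were seen. Of the list symbols, 7 were not found (Eip71CD, ImpL3, Eip55E, Dl, Hsp67Bb, Unc-89 and RpII140). Alternatives were other distances, windows, list lengths and subsets of members, and leaving out each library. Tools were scipy 1.17.1, pandas 2.3.3 and numpy 2.4.6 in Python 3.11.15, with figures from matplotlib 3.10.9.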

Additional observations from a re-analysis of the deposited data

How the results depend on the processing

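Libraries could not be paired between groups because there is 1 group of libraries. The number of members was 261 from the 2000 strongest peaks and 2992 from the 6000 strongest. The share listed in library 1 was 32.1%, 69.5% and 86.2% with matching at 50, 200 and 500 bp, and in library 3 it was 20.9%, 47.4% and 67.8%. Matching wider therefore raised both, with library 1 above library 3 at each distance. The promoter share was 29%, 39.4% and 61.4% with a TSS distance of 200, 500 and 2000 bp, and the coding exon share 1.62% with promoters not taken first. The GC difference between member summits and flanks was 5.68 points with flanks at 1000 bp and 9.25 with promoter members left out, and stayed positive in all 6 alternatives run. Words that rose numbered 101 and 456 with windows of 25 and 100 bp and 93 in the stronger 648 members (fewer peaks tested), and words that fell 138, 393 and 138. With flanks at 1000 bp, 170 words rose and 190 fell. Leaving out a library, the mean promoter difference outside minus inside the IDR list ranged from -4.33 (without library 1, a reversal) to 4.09 points, and the GC difference from 1.08 (without library 2) to 6.25. The causes were not tested. Without read counts, limits set by depth could not be given.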

Other observations

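The reproducible peaks of library 2 varied with base composition as well. Of the IDR peaks, 3182 were listed in all 3 libraries. In 5 classes of these by GC content, the median log2 difference in relative signal of library 2 from the mean of libraries 1 and 3 was -0.55, -0.50, -0.46, -0.38 and 0.08 from the most A/T-rich class (13.9% to 27.7% GC) to the most G/C-rich (43.6% to 70.3%). The log2 difference of library 1 from library 3 was -0.25, -0.21, -0.32, -0.29 and -0.11. Across these peaks, which share libraries and are not independent, Spearman's rho with GC content was 0.29 for library 2 against the others and 0.06 for library 1 against library 3. What lies behind the pattern was not tested.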
